A study of Mus musculus with 7 samples.

Results

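The genes of the carnitine shuttle and of carnitine synthesis were examined in newborn mouse liver. The set was defined as all probe sets whose platform annotation gives 1 of 10 genes as its only symbol: the acyltransferases Cpt1a, Cpt1b, Cpt2, Crot and Crat, the carriers Slc25a20 and Slc22a5, and the synthesis enzymes Tmlhe, Aldh9a1 and Bbox1. Of the 10 genes, 9 had such a probe set, with 22 probe sets in all among 45037 on the array. Cpt1b, the transferase form best known from muscle, was named only by 1 probe set that also names other genes, so no value is given for it. Livers came from male C57BL/6J pups on day of life 1, 3 of them wild type and 4 with a knockout of glycerol kinase, and each liver was hybridised to its own Affymetrix array. The wild type pups were age-matched littermates of knockout mice. The enzyme lost in the knockout turns glycerol into glycerol 3-phosphate, and at this age, per the series' design text, knockout pups are still without symptoms, which makes this a view of transcripts ahead of overt disease. The allele and any tissue restriction of the knockout are not given in the sources used here, and no value of the targeted gene itself is reported, which leaves the genotype labels unchecked at that gene.

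Long-chain fatty acids cannot cross the inner mitochondrial membrane as acyl-CoA. An outer membrane transferase, Cpt1, moves the acyl group to carnitine, the carrier Slc25a20 exchanges the acylcarnitine for free carnitine, and Cpt2 on the inner face restores the acyl-CoA for beta oxidation. Peroxisomes shorten very long and branched chains and pass their products on as carnitine esters made by Crot and Crat. Liver also makes carnitine from trimethyllysine, and cells import it through Slc22a5. At birth the liver turns from glucose to milk fat as fuel, and the shuttle is known as a point of control of that switch.

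Transcripts of Crot, Cpt2, Slc25a20 and Crat rose in knockout liver, by 6.30-fold, 4.42-fold, 2.45-fold and 2.26-fold on the brightest probe set of each. Read by the mean of all its probe sets, a gene could differ: Crot came to 1.55 on the log2 scale in place of 2.66 and Cpt2 to 1.22 in place of 2.14, both still past the test, and Crat did not pass. For Crot and Cpt2 that mean takes in a dim second probe set, with wild type and knockout means of 16.4 and 30.3 for Crot and of 94.3 and 127.9 for Cpt2. Each gene was read by its brightest probe set, and a gene is said to have risen or fallen where limma's adjusted p, over all 22518 tested probe sets, was under 0.05. By this rule 4 of 9 genes rose and 0 fell, while 3.09% of all 11159 genes tested this way rose and 1.67% fell. The other 5 genes, Cpt1a, Slc22a5, Bbox1, Tmlhe and Aldh9a1, did not pass. The count was 2, Crot and Cpt2, without wild type 3 or without knockout 4, and 6 without knockout 3. Among single probe sets, 5 of the 20 tested rose and 0 fell, beside 2.35% and 1.89% of all tested. By the brightest probe set, all 9 genes had a log2 fold change above 0, with a median of 0.81. Of all tested genes 49.9% were above 0, with a median of -0.0013. All 9 stayed above 0 whichever array was left out and with median or quantile scaling. On these probe sets the groups did not overlap in 5 of the 9 genes, with knockout higher, against 11.7% of all tested genes. They did so in 0 with knockout lower, against 10.4%. The direction was less uniform beyond the brightest probe sets. Of the 11 other tested probe sets 5 were below 0, and 4 of the 9 genes had tested probe sets of opposite sign. When the probe sets of each gene were averaged, 8 genes were above 0 and Tmlhe was below, with a median of 0.58. Intensities are linear values scaled by the submitters, fold changes are differences of log2(intensity + 16), and errors are SDs for intensities and standard errors for fold changes.

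The promoters of the most changed shuttle genes are shown because their transcripts rose together and the stretches can be compared by eye. RefSeq promoter windows of assembly GRCm38.p6 were matched by symbol for 7 of the genes, and the 250 bases before the annotated start are given for the 3 called genes among them. Capitals mark a GC box, the letters GGGCGG on either strand, the classical site of Sp1-type factors.
Crot, chr5:8997147-8997396, minus strand: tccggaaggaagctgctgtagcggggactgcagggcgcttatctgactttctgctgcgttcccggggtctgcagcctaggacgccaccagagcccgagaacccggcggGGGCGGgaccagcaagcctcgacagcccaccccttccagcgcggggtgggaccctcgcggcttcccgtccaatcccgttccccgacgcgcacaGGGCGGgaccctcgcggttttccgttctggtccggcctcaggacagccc
Cpt2, chr4:107923590-107923839, minus strand: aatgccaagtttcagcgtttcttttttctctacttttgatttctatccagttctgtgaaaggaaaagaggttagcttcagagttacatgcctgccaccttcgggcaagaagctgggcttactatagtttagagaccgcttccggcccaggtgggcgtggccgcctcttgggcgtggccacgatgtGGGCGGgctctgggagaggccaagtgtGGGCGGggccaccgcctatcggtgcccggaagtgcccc
Slc25a20, chr9:108661886-108662135, plus strand: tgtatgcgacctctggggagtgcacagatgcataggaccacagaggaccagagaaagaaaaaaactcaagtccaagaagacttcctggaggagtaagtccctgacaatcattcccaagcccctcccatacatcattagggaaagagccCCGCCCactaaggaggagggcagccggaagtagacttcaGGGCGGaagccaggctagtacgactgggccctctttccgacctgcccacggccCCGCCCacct
Crot and Cpt2 had 2 GC boxes each and Slc25a20 had 3, the nearest of them 49, 38 and 10 bases before the start. A GC box was found before 5 of the 7 matched genes and in 32.7% of 32851 windows of the same length. Cpt1a and Slc22a5, which did not pass the test, had 2 and 3, so GC boxes did not set the called genes apart in these windows. Bbox1 and Aldh9a1 had none, and no window was matched for Crat, the other called gene. The start used was the edge of the annotated gene for Crot, Cpt2 and Slc25a20. It was not the edge for Cpt1a, Slc22a5, Bbox1 and Aldh9a1, so called and uncalled genes were compared at unlike kinds of start. The hexamer AGGTCA, the unit recognised by nuclear receptors such as PPAR alpha, was searched on both strands and found in 1 of the 7, Cpt1a, at 94 bases before its start, and in 14.0% of all windows. AGGTCANAGGTCA, a pair of such hexamers with 1 base between them, was found in 0 of the 7 and in 0.0335% of all windows. None of the 7 windows held 2 of the hexamers, so the count of 0 holds on both strands. For the share of all windows a search of the reverse strand is not recorded. These are letter matches in short windows and say nothing about binding of a factor.

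**Figure D1:**
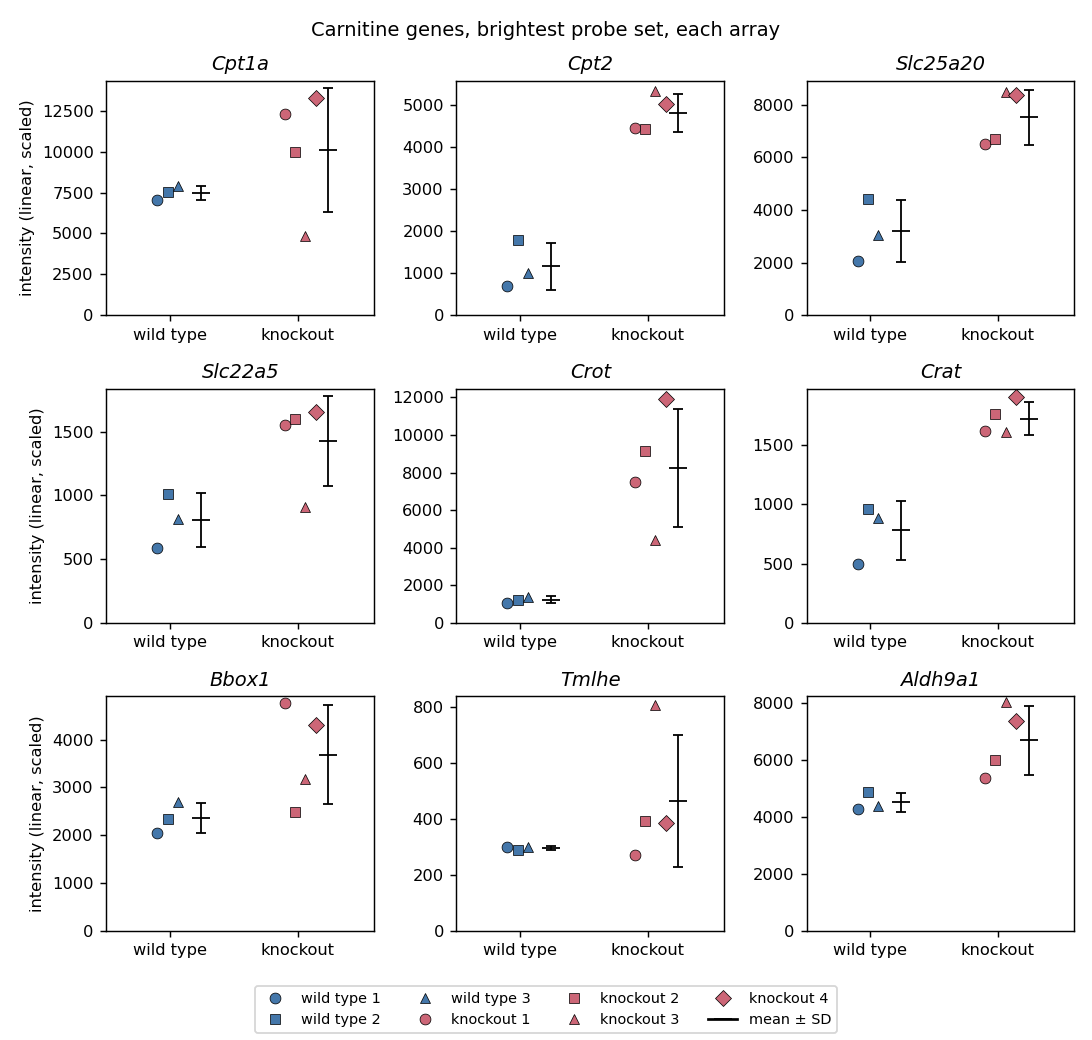
Intensity of the brightest probe set of each of the 9 genes, 1 point per array, with the mean and SD of 3 wild type and 4 knockout arrays beside the points. The groups are separate for Cpt2, Slc25a20, Crot, Crat and Aldh9a1, while knockout 3 lies below the wild type range for Cpt1a and inside it for Slc22a5.

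At the outer mitochondrial membrane, Cpt1a, the liver form of the transferase that malonyl-CoA inhibits, did not pass the test. Its brightest probe set, 1460409_at, had intensities of 7034, 7551 and 7903 in wild type 1 to 3 and of 12307, 9983, 4850 and 13292 in knockout 1 to 4. Of the knockout arrays, 3 were above every wild type array and knockout 3 was below all of them. Knockout minus wild type came to 0.33 ± 0.29 on the log2 scale, with a 95% interval from -0.31 to 0.98 and limma's adjusted p = 0.547. Without knockout 3 it was 0.65 and the gene passed, at limma's adjusted p = 0.0232. The other probe sets, 1434866_x_at and 1438156_x_at, gave -0.22 ± 0.33 and 0.05 ± 0.24, and knockout 3 was the lowest knockout array on both, at 633.2 and 384.0. Both are of a type shared between transcripts and were dimmer, with wild type means of 1372 and 540.6 beside 7496. The value for Cpt1a thus differed with the probe set and with whether knockout 3 was included.

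At the inner membrane, Cpt2 was separate between the groups. Its brightest probe set, 1416772_at, had intensities of 690.0, 1791 and 992.0 in wild type 1 to 3 and of 4452, 4418, 5327 and 5019 in knockout 1 to 4. All knockout arrays were above all wild type arrays, and the spread among wild type livers (1158 ± 569, SD, n = 3) was wide beside that among knockout livers (4804 ± 444, SD, n = 4). This gave a log2 fold change of 2.14 ± 0.26 (limma's adjusted p = 0.0038), and only 15 of the 11159 tested genes had a larger one. Cpt2 passed whichever array was left out. A dim second probe set of the shared type, 1447820_x_at, with group means of 94.3 and 127.9, gave 0.30 ± 0.32 and did not pass (limma's adjusted p = 0.628).

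Slc25a20, the carnitine-acylcarnitine carrier between both transferases, rose on both of its probe sets. The brighter, 1423108_at, had intensities of 2072, 4432 and 3067 in wild type 1 to 3 and of 6526, 6702, 8483 and 8390 in knockout 1 to 4. Wild type 2 was the highest wild type array, as for Cpt2, and still below every knockout array. Its log2 fold change was 1.29 ± 0.23 (limma's adjusted p = 0.0167) on this probe set and 1.35 ± 0.19 (limma's adjusted p = 0.0064) on the other, 1423109_s_at, which is of a type shared between transcripts. Slc25a20 did not pass without wild type 3 or without knockout 4, with limma's adjusted p at most 0.0787.

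Slc22a5, the sodium-dependent carnitine importer of the plasma membrane, was higher in most knockout livers but did not pass. Its brightest probe set, 1450395_at, had intensities of 590.3, 1013 and 812.5 in wild type 1 to 3 and of 1553, 1597, 905.5 and 1654 in knockout 1 to 4. Knockout 3 lay inside the wild type range and the other knockout arrays lay above it. The log2 fold change was 0.81 ± 0.25, with a 95% interval from 0.26 to 1.36 and limma's adjusted p = 0.0945. The second probe set, 1421848_at, gave 0.99 ± 0.30 (limma's adjusted p = 0.0948), again with knockout 3 inside the wild type range, at 173.9. Without knockout 3 the brightest probe set passed, at 1.01 and limma's adjusted p = 0.0256.

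Crot, the peroxisomal carnitine octanoyltransferase that exports medium-chain products, had the largest fold change of the set. Its brightest probe set, 1450966_at, had intensities of 1037, 1242 and 1400 in wild type 1 to 3 and of 7489, 9162, 4425 and 11923 in knockout 1 to 4. All knockout arrays were far above the narrow wild type range (1226 ± 182, SD, n = 3), and they spread widely among themselves (8250 ± 3138, SD, n = 4), with knockout 3 the lowest. With a log2 fold change of 2.66 ± 0.28 (limma's adjusted p = 0.0020), Crot stood behind 6 of the 11159 tested genes. It passed whichever array was left out. A second probe set, 1440474_at, lay at group means of 16.4 and 30.3 and under the filter on dim probe sets, so it was not tested.

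Crat, the carnitine acetyltransferase of mitochondria and peroxisomes, buffers short-chain acyl groups. Its brightest probe set, 1417008_at, had intensities of 497.8, 955.9 and 887.2 in wild type 1 to 3 and of 1617, 1760, 1607 and 1903 in knockout 1 to 4. The knockout arrays were close to each other and above all wild type arrays. The log2 fold change was 1.18 ± 0.22 (limma's adjusted p = 0.0192). The call was lost without wild type 3 or without knockout 4 (limma's adjusted p at most 0.0614), and also when its 3 probe sets were averaged, at 0.54 and limma's adjusted p = 0.153. Of its other probe sets, 1448544_at was at 0.46 ± 0.20 with separate groups and 1441919_x_at, of the shared type, at -0.01 ± 0.32, and neither passed.

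**Figure D2:**
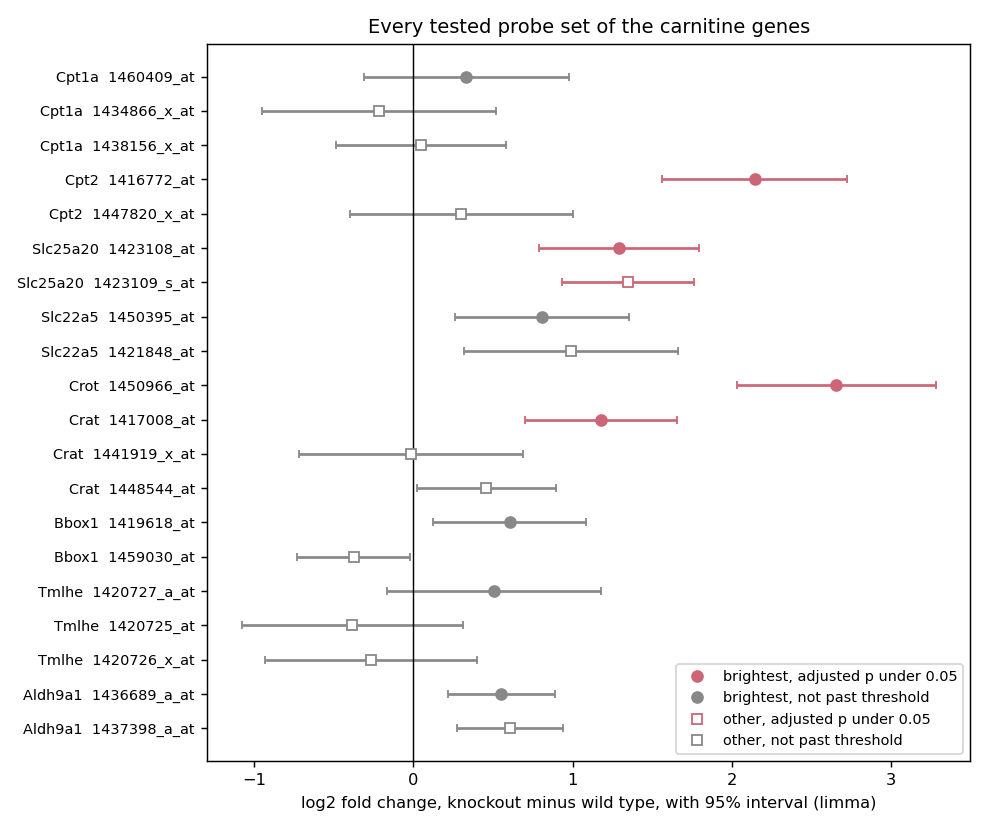
Log2 fold change, knockout minus wild type, with its 95% interval from limma, for each of the 20 tested probe sets of the 9 genes. Filled circles are the brightest probe set of a gene, open squares the others, and red marks an adjusted p under 0.05. The 5 probe sets past the threshold are those of Cpt2, Slc25a20, Crot and Crat, and Cpt1a, Crat, Bbox1 and Tmlhe each have probe sets on both sides of 0.

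None of the 3 enzymes of carnitine synthesis passed the test. Tmlhe, the dioxygenase that hydroxylates trimethyllysine at the start of the pathway, had intensities of 300.2, 287.6 and 297.2 in wild type 1 to 3 and of 268.6, 391.4, 808.6 and 384.4 in knockout 1 to 4 on its brightest probe set, 1420727_a_at. Wild type arrays were nearly equal, and knockout 3 stood far above the other knockout arrays, which lay on both sides of them. The log2 fold change was 0.51 ± 0.30 (limma's adjusted p = 0.360), and its 2 other tested probe sets were at -0.38 ± 0.31 and -0.27 ± 0.30, the latter of the shared type. One more, 1446546_at, lay under the filter. With the mean of all its probe sets Tmlhe was at -0.088.

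Aldh9a1, which oxidises trimethylaminobutyraldehyde to butyrobetaine, was separate between the groups by a small margin. The brighter probe set, 1436689_a_at, had intensities of 4265, 4871 and 4378 in wild type 1 to 3 and of 5380, 5997, 8042 and 7352 in knockout 1 to 4. Every knockout array was above every wild type array on both probe sets. The log2 fold changes were 0.55 ± 0.15 and 0.61 ± 0.15 (limma's adjusted p = 0.0684 and 0.0521), with 95% intervals from 0.22 to 0.89 and from 0.27 to 0.94. Without knockout 1 the brighter probe set passed, at limma's adjusted p = 0.0359.

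Bbox1, the butyrobetaine dioxygenase that completes carnitine, gave opposite signs on its 2 probe sets. On 1419618_at intensities were 2046, 2330 and 2688 in wild type 1 to 3 and 4768, 2492, 3166 and 4311 in knockout 1 to 4, with knockout 2 inside the wild type range. The log2 fold change there was 0.61 ± 0.22 (limma's adjusted p = 0.141). On 1459030_at they were 593.7, 656.0 and 649.0 in wild type and 502.7, 513.0, 395.2 and 537.8 in knockout, so all knockout arrays were lower, at -0.37 ± 0.16 (limma's adjusted p = 0.204). No direction can be given for Bbox1 from these arrays.

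Knockout 3 was low for some genes of the set and high for others. Among the knockout arrays it was the lowest for Cpt1a, Slc22a5, Crot and Crat and the highest for Cpt2, Slc25a20, Tmlhe and Aldh9a1. Relative to the wild type mean, its log2 level was -0.62 for Cpt1a, where the other knockout arrays were between 0.41 and 0.83, and 1.41 for Tmlhe, where they were between -0.13 and 0.39. For Crat it was 1.08 against 1.09 to 1.32, a small gap. Knockout 3 also had the highest 3' to 5' ratio for each of 4 RNA controls, which rises as RNA is shorter, at 11.1 for the transferrin receptor against 7.22 to 8.24 elsewhere and at 1.45 for actin against 1.12 to 1.35. The part of RNA quality in these values was not tested. Without knockout 3, 6 of 9 genes rose, with Cpt1a and Slc22a5 added to the 4. Among the wild type arrays, wild type 1 was the lowest for 8 of the 9 genes, all but Tmlhe.

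**Figure D3:**
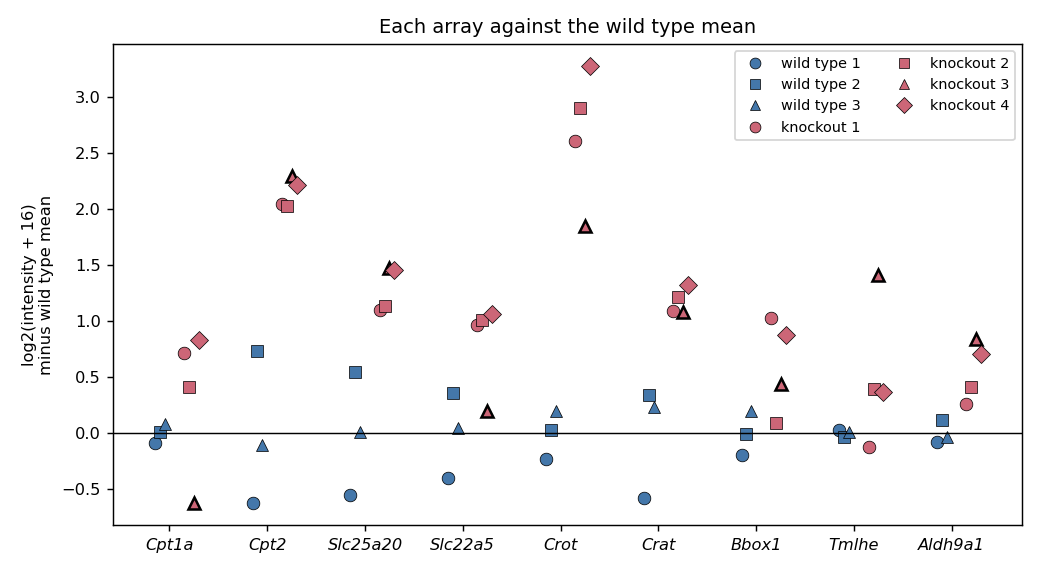
Log2(intensity + 16) of each array minus the wild type mean of the same gene, for the brightest probe sets of the 9 genes, with knockout 3 outlined in bold. Knockout 3 is at -0.62 for Cpt1a and 1.41 for Tmlhe, outside the other knockout arrays in opposite directions, and with them for Cpt2, Slc25a20 and Crat.

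Whether 2 genes with related roles changed unequally was asked within each array, as the difference of their log2 levels. Any common scaling of an array leaves this difference nearly as it is. For Cpt2 minus Cpt1a the difference was -2.79 ± 0.65 (SD, n = 3) in wild type and -0.98 ± 0.75 (SD, n = 4) in knockout, a shift of 1.81 toward the inner transferase with separate groups (exact two-sided permutation p = 0.0286, adjusted over 4 pairs 0.114). With gene means over all probe sets that shift was 1.17. For Crot minus Crat it was 0.69 ± 0.33 (SD, n = 3) and 2.16 ± 0.51 (SD, n = 4), a shift of 1.48, also with separate groups (exact permutation p = 0.0571, adjusted 0.114). Without knockout 3 the shifts were 1.44 and 1.72. With 35 splits of 7 arrays the smallest p is 0.0286, so neither 1 nor 2 pairs at that p can pass the adjustment. Neither shift passed it, which these 2 pairs alone could not have done at any size. The adjusted values therefore cannot decide on these shifts. For the carriers, Slc25a20 minus Slc22a5 moved by 0.48 (exact permutation p = 0.171, adjusted 0.229), with knockout 3 at 3.21 and all other arrays between 1.78 and 2.33. For synthesis, Bbox1 minus Tmlhe moved by 0.10 (exact permutation p = 0.914, adjusted 0.914), with knockout values from 1.95 to 4.07 around a narrow wild type range of 2.71 to 3.11.

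**Figure D4:**
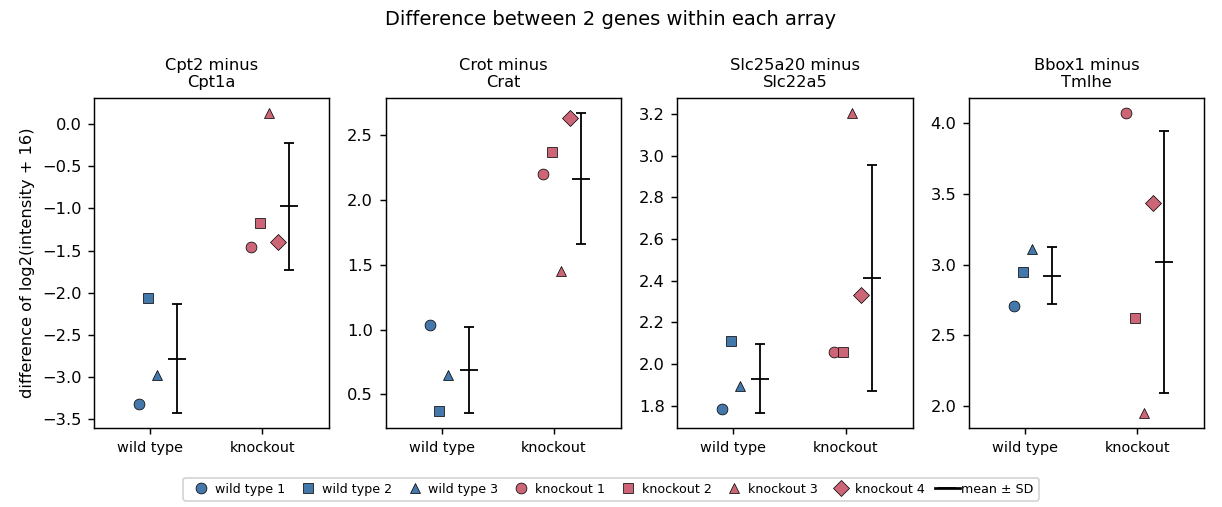
Difference of log2(intensity + 16) between 2 genes within each array, for 4 pairs of genes with related roles. Each array is 1 point, with the mean and SD per group. The vertical axes do not start at 0 and differ between panels. The groups are separate for Cpt2 minus Cpt1a and Crot minus Crat and overlap for the carriers and for the synthesis enzymes.

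Among other carnitine carriers and isoforms, Slc22a4 fell. Of 4 tested genes of that list 0 rose and 1 fell, with a median log2 fold change of -0.36, beside 3.09% and 1.67% of all tested genes. Slc22a4, a relative of Slc22a5 known for ergothioneine and weak carnitine transport, fell from intensities of 490.3, 467.8 and 464.8 in wild type to 238.5, 265.9, 179.8 and 161.4 in knockout, with a log2 fold change of -1.13 ± 0.20 (limma's adjusted p = 0.0160). Its call was lost without any one of the wild type arrays (limma's adjusted p at most 0.0810) and with the replicate block (limma's adjusted p = 0.0584). Slc22a21, Slc22a16 and Slc6a14 lay under the filter.

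Genes that supply the shuttle changed in part. Of 9 tested genes for fatty acid uptake and activation 3 rose and 0 fell, beside the 3.09% and 1.67% of all tested genes, with a median log2 fold change of 0.37. The 3 were Slc27a4 at 0.81 ± 0.14, the very long-chain synthetase Slc27a2 at 0.48 ± 0.10, and Fabp1, the fatty acid binding protein of liver, at 0.81 ± 0.17 (limma's adjusted p = 0.0163, 0.0286 and 0.0340). The call of Slc27a4 was lost without wild type 2 or 3, and those of Slc27a2 and Fabp1 without any one of the wild type arrays, knockout 2 or knockout 4 (limma's adjusted p at most 0.104, 0.120 and 0.144). The count was thus 0 without wild type 2 or without wild type 3, and Fabp1 was also lost with gene means (0.58, limma's adjusted p = 0.0638). It was also 0 with the replicate block, and 1, Slc27a4, without a trend or with no filter. Acsl1 had no named probe set. Of 7 genes around malonyl-CoA, the inhibitor of Cpt1a, 0 rose and 0 fell, with a median of 0.37, and a count of 0 in 7 is near those shares of all tested genes. The ones of smallest p were 2 catalytic subunits of AMP kinase, with Prkaa2 at 0.87 ± 0.25 (limma's adjusted p = 0.0786) and Prkaa1 at -0.63 ± 0.22 (limma's adjusted p = 0.135). Prkaa2 passed without knockout 3 (limma's adjusted p = 0.0487).

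Downstream of the shuttle, 8 of 13 genes of mitochondrial oxidation and 5 of 10 tested peroxisomal genes rose and 0 fell, where 3.09% of all tested genes rose and 1.67% fell. The mitochondrial genes had a median log2 fold change of 0.66, among them the electron transfer enzyme Etfdh at 1.12 ± 0.16, Decr1, which handles unsaturated chains, at 1.12 ± 0.18 and Hadha, of the trifunctional protein, at 0.81 ± 0.14 (limma's adjusted p = 0.0068, 0.0120 and 0.0168). The mitochondrial count depended on single arrays: it was 2 without wild type 1 or without wild type 2, 1 without wild type 3 and 3 without knockout 4, although all 13 fold changes stayed above 0 in each. It was 4 without a trend, with no filter or with the replicate block. Etfdh passed whichever array was left out but not with the mean of its probe sets (0.69, limma's adjusted p = 0.0854), Decr1 failed without wild type 3 (limma's adjusted p = 0.0608) and Hadha without any one of the wild type arrays (at most 0.0822). The peroxisomal genes had a median of 0.71, and 4 or 5 of them rose whichever array was left out. Among them the thiolase Acaa1b was at 2.99 ± 0.23, Ehhadh at 1.82 ± 0.20 and Abcd3, the peroxisomal importer of acyl-CoA, at 1.73 ± 0.18 (1.11 with the mean of its probe sets). Acaa1b, Ehhadh and Abcd3 passed whichever array was left out, as did Crot and Cpt2. Of 10 transcription factors of fatty acid oxidation 0 rose and 0 fell, again near the shares of all tested genes, with a median of 0.11. Those of smallest p were the liver X receptor Nr1h3 at 0.65 ± 0.23 (limma's adjusted p = 0.145) and the coactivator Ppargc1a at -0.57 ± 0.25 (limma's adjusted p = 0.215). Over all tested probe sets 55.4% of the called ones were higher, and 71.3% when arrays were scaled to equal medians.

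**Figure D5:**
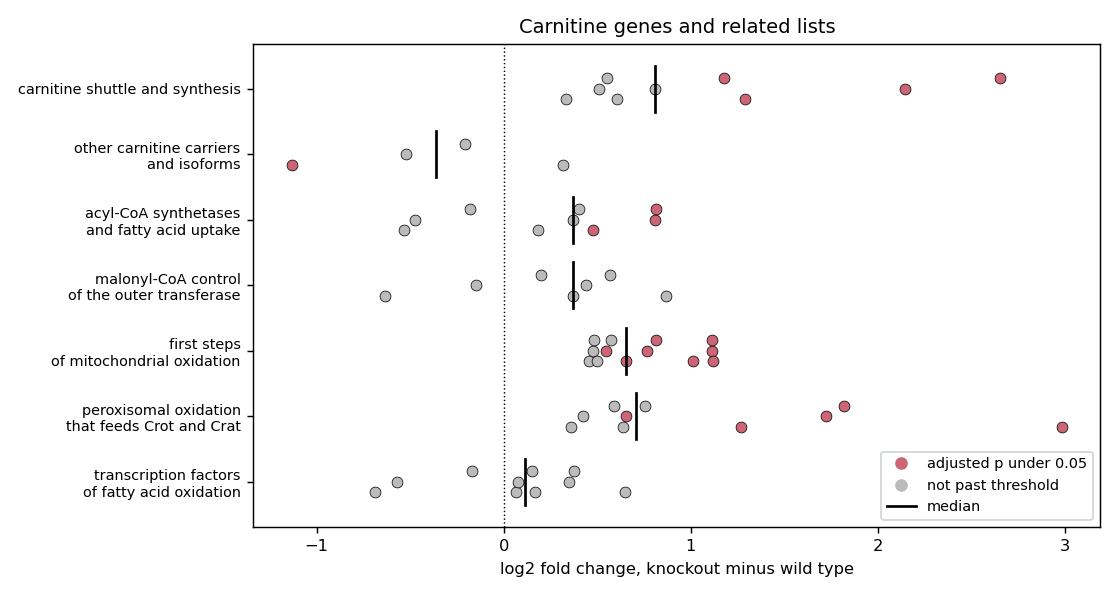
Log2 fold change, knockout minus wild type, of each tested gene by its brightest probe set, for the carnitine genes and 6 related lists. Points in red have an adjusted p under 0.05, and black bars are list medians, which run from -0.36 for other carnitine carriers to 0.81 for the carnitine genes.

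Markers of the cells a newborn liver holds were read beside these values. Of all tested genes 3.09% rose and 1.67% fell, so a count of 0 in so short a list is near those shares. The groups did not overlap in 11.7% of all tested genes with knockout higher and in 10.4% with knockout lower. A single marker with separate groups is therefore given as a value only. Of 6 named hepatocyte markers 0 passed, with a summed intensity from 177228 to 194879 in wild type and from 162111 to 215107 in knockout. Of 7 markers of red cell precursors 3 fell, Slc4a1, Rhag and Trim10, with a summed intensity from 67578 to 76927 in wild type and from 54743 to 59673 in knockout. That count was 0 without wild type 2, wild type 3 or knockout 4, and also with equal medians, without a trend, with no filter and with the replicate block, and it was 1 or 2 without any other array. The 5 T cell markers, of which 2 were bright enough to test and Itgae fell, summed to between 1097 and 1910 in wild type and between 391.5 and 725.6 in knockout. Itgae did not pass without wild type 3 or with the replicate block. Of 6 endothelial markers 0 passed, and they summed to between 12709 and 15213 in wild type and between 7198 and 12649 in knockout. The sums of red cell, T cell and endothelial markers thus did not overlap between the groups, and those of hepatocyte markers did. For T cells and endothelium the separation of these sums rested on the brightest member, though some other single markers were separate as well. The T cell markers Cd3e (means of 57.9 in wild type and 21.2 in knockout) and Cd3g (33.5 and 13.6) were lower in all knockout arrays. Both were dim and under the filter, and Cd8a and Thy1 overlapped. Without Itgae the T cell sums ran from 268.4 to 333.8 in wild type and from 153.1 to 311.9 in knockout, and without Lyve1 the endothelial sums ran from 6980 to 8145 and from 4469 to 7473. Of the 6 endothelial markers 5 had a log2 fold change below 0. Stab2 at -0.51 ± 0.17 and Lyve1 at -0.71 ± 0.25 were separate with knockout lower (limma's adjusted p = 0.123 and 0.134). Only Tek was above 0, separate in the other direction, at 0.61 ± 0.17 (limma's adjusted p = 0.0731). Red cell sums stayed separate without Slc4a1, their brightest member. For markers of macrophages, neutrophils, stellate cells, bile duct, muscle and brown fat, 0 genes passed and the sums overlapped. Only 1 of 8 muscle, 2 of 5 brown fat and 3 of 4 named bile duct markers were bright enough to test. Single markers of these lists with separate groups were Elane of neutrophils, lower at -0.83 ± 0.26, and Epcam of bile duct, higher at 0.21 ± 0.18 (limma's adjusted p = 0.105 and 0.530). So few separate markers are no more than the shares of all tested genes would give. In whole liver, fewer cells of a type and less RNA per cell cannot be told apart, and the part of cell composition in the carnitine values was not tested. Muscle markers, which go with the Cpt1b form, were dim, with 3 of 8 under an intensity of 50 on every array.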

How the data were processed

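The authors deposited linear intensities, made with GCOS per the submitters' processing notes. How probes were summarised into probe sets is a step not given in the sources used here. The deposited arrays share a mean of 500.003 after the lowest and highest 2% of probe sets are left out, so they had been scaled to 1 target and cannot show a change of total RNA. Median intensities ran from 92.7 to 108.3, arrays correlated at 0.930 to 0.985, and 0 of 21 pairs were identical. The number of arrays limits the precision.

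After 64 control probe sets were left out, values were taken as log2(intensity + 16) without further scaling, and the 22518 probe sets whose mean exceeded the median of all were tested with limma 3.58.1 in R 4.3.3 (lmFit, eBayes with a trend, Benjamini-Hochberg over all), without covariates. Fold changes on this scale understate changes of dim probe sets. In the platform annotation 34958 probe sets have 1 symbol, 932 several and 9211 none, and the 9 measured genes matched RefSeq by gene ID. The steps were tested on simulated data. The members and lists were chosen with earlier results of these data known. All members are named, and in each related list up to 3 called genes of smallest p per direction, or up to 2 where none was called. Markers are named where called, and some uncalled ones to describe sums or separate groups. Same-numbered arrays showed little shared deviation (correlations of 0.09, -0.06 and 0.06). The labels state no pairing, and so few correlations cannot settle whether the numbers mark one. Alternatives covered offset, scaling, filter, variance model, each array left out, a block, the threshold and the choice of probe sets. Marker sums without the brightest member were added after seeing the data. Labels say each liver was extracted separately; litters and batches were not used. Plots were drawn with matplotlib 3.10.9.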

Additional observations from a re-analysis of the deposited data

Results flagged for a closer look

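Among the 22 probe sets of the set, 4 had a knockout array far from the other knockout arrays on the log2 scale, its gap to the nearest as a share of the group's range being over Dixon's 95% critical value, which chance gives in about 5% of groups. Knockout 3 was the low array in 3 of them: Slc22a5 on 1450395_at (gap of 0.895 of the range, intensity 905.5) and on 1421848_at (0.859, intensity 173.9), and Cpt1a on 1438156_x_at (0.847, intensity 384.0). Knockout 2 was the low array on the dim Crot probe set 1440474_at (0.862, intensity 3.50), which was not tested.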

How the results depend on the processing

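Of 161 values of the 9 genes under alternatives, 150 kept their direction and side of the threshold, 7 lost a call, 3 gained one and 1 turned sign, Tmlhe at -0.088 with the mean of its probe sets. All 7 lost calls were of Slc25a20 and Crat, while Crot and Cpt2 kept theirs throughout. Many of the 150 are uncalled genes that stayed uncalled. The stricter threshold could not change those, and no brightest probe set of the 9 genes is of the shared type that 1 setting left out. The count of 4 genes that rose was 2 at an adjusted p under 0.01, and ran from 2 (without wild type 3 or knockout 4) to 6 (without knockout 3); 0 fell throughout. Over all probe sets, 955 calls (529 higher, 426 lower) became 584 (333, 251) with eBayes without a trend, 473 (290, 183) with no filter, 142 (111, 31) at an adjusted p under 0.01 and 351 (210, 141) with the replicate block, and 218 were lower with equal medians; without 1 array they ran from 127 to 1006 (105 to 592 higher, 22 to 414 lower). Of 53 related genes 16 rose and 1 fell; 9 rose without a trend or with no filter, 5 rose and 0 fell at an adjusted p under 0.01, 8 rose and 0 fell with the replicate block, 2 fell with gene means, 0 fell above the upper quartile, and without 1 array 5 to 16 rose and 0 to 1 fell. The difference of Bbox1 minus Tmlhe was -0.041 under the block, which drops knockout 4 since no wild type array shares its number, and -0.25 to 0.45 without 1 array. The block left the calls of the 9 genes as they were. Leaving out an array also lowers power; other causes were not tested. With 3 and 4 arrays, signal near background limits the dim probe sets of Crot, Cpt2 and Tmlhe.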
